A study of Mus musculus with 30 samples.

Results

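Heat shock proteins and their DnaJ co-chaperones were followed in mammary tumours arising in Myc transgenic mice. Members were the array probes whose only annotated gene symbol is that of an Hspa, Hspb, Hspd, Hspe, Hsph or Hsp90 gene or of a Dnaja, Dnajb or Dnajc gene, measured on 24 or more of the 30 arrays. This gave 67 probes for 62 genes, of 16874 probes with a single symbol for 15096 genes in all. A further 5 probes with such symbols had fewer values and were left out: Hspa12b, Hspb2, Hspb9, Hspe1-ps6 and a further probe for Dnajb4. Of the 67 probes, 60 (56 genes) had a value in every extract and were tested. Probes for Hsp90aa1, Hsp90ab1 and Hspa1b, which encode the cytosolic Hsp90 proteins and a near-identical copy of Hspa1a, were not analysed here. Whether the Hspa1a probe also reads Hspa1b RNA was not tested.

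Hsp70 chaperones bind short hydrophobic stretches of unfolded proteins and release them in a cycle driven by ATP. DnaJ proteins bring the client and trigger the hydrolysis of ATP, and exchange factors such as the Hsp110 proteins reload the chaperone. Each compartment has its own set, with BiP (Hspa5) and Grp94 (Hsp90b1) in the endoplasmic reticulum and mortalin (Hspa9) with the Hspd1 and Hspe1 chaperonin in mitochondria. Heat shock factor drives the cytosolic set through GAA-type elements in promoters, and tumours often carry raised levels of these chaperones.

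The series holds 15 RNA extracts set against 1 common reference RNA, whose origin no source used here gives; every extract was read on 2 arrays, labelled in channel 1 on one and in channel 2 on the other. All extracts come from mice with the Myc transgene, so there was no group without it; the promoter of the transgene, the age and strain of the mice, and any pooling are not given either. Extract codes join a number and a letter of unstated meaning: 10 numbers occur, 579 on 5 extracts, 546 on 2 and the others on 1 each. Per the labels, extracts 550-A and 561-B belong to work on tumour progression, 12 extracts to work on epithelial to mesenchymal transition, and for 595-A the descriptions of its arrays differ, 1 of each kind. Whether each extract stands for its own animal is not in the labels. P-values from extract means therefore reflect the spread among extracts alone, part of which may be technical. Those of the F-test over extracts, given below, set that spread against the noise between arrays of 1 RNA. Values are log2 ratios to the reference with the sign turned where the extract was in channel 2. Positive values lie on the side of the Myc probe (3.16 ± 0.11, SE, n = 15 extracts, positive in 15 of 15), called the Myc side, and negative values on the opposite side. The labels name neither dye nor numerator. From the design, the Myc side is likely the one where the extract exceeded the reference, which is not proof, and turning the ratio would swap every direction given.

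Arrays held between 13434 and 21991 measured probes, thinnest in 546-A and 548-A. Paired arrays of an extract correlated at r from -0.47 to 0.04 over the probes tested before the sign was turned. Arrays that shared a channel, and so never an extract, had r of 0.29 or more, with 0.56 as the median. That median exceeded the size of every paired r, so paired arrays were not close replicates. Array medians after turning ran from -0.94 to 1.14, so calls are also given with medians subtracted. In bulk RNA, fewer cells of a type and less RNA per cell cannot be told apart. Epithelial markers lay on the Myc side for 13 of 13 genes tested, with list means, after array medians were subtracted, from 1.80 to 3.15 per extract, and mesenchymal markers on the opposite side for 14 of 18, with list means from -2.73 to 0.22. Their part in the members' values was not tested.

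Promoter sequences are shown for members on which the results turn: the chaperonin pair whose values moved together over extracts, the ER chaperones that moved together, and the inducible genes farthest on the Myc side. They were taken from RefSeq (GRCm38.p6), which gave 68 promoters for 52 of the 62 member genes, each window holding 300 bases around a start site. Hspd1 and Hspe1 are transcribed away from each other, and 1 of the 2 Hspd1 start sites lies 216 bases from that of Hspe1 while the other lies past it. The stretch between the facing starts, chr1:55087933-55088147, is given on the strand of Hspe1, with the heat shock elements GAANNTTC and TTCNNGAA, which overlap here, in capitals.

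Hspe1 and Hspd1, between the start sites: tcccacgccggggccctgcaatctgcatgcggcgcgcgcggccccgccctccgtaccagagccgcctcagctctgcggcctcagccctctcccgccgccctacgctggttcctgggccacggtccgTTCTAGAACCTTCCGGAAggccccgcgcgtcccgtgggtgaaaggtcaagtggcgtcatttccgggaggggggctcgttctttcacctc

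Hspa1a, chr17:34972157-34972406, minus strand: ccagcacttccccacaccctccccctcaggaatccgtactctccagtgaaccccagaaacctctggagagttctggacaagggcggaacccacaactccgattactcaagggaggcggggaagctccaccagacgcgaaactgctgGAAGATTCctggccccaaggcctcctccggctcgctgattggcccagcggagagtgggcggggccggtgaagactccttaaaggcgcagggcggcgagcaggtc

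Hspb1, chr5:135887669-135887918, plus strand: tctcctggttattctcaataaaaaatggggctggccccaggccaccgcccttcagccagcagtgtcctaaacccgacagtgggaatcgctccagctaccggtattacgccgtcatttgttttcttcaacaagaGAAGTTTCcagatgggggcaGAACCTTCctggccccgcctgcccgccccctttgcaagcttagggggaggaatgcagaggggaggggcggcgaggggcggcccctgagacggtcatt

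In the Hspa1a and Hspb1 sequences, which end at the base before the start site, capitals mark the same elements: 1 match for Hspa1a and 2 for Hspb1. For the ER pair, capitals mark the ER stress element, which is CCAAT and CCACG with any 9 bases between them, found once before Hspa5 and on both strands before Hsp90b1.

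Hspa5, chr2:34771840-34772089, plus strand: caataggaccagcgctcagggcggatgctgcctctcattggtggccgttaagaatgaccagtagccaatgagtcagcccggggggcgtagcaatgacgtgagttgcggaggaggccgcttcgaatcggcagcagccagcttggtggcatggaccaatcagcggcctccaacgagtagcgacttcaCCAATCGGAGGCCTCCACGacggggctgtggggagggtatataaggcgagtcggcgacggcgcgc

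Hsp90b1, chr10:86705445-86705694, minus strand: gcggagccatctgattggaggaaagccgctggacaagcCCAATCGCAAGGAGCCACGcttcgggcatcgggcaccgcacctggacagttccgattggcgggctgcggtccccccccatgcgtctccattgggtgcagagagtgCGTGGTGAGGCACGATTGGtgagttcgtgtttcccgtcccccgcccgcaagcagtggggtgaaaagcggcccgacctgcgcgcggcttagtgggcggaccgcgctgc

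Both strands of each window were searched. GAANNTTC stood in 13 of 68 member promoters (19.1%) against 7.86% of all 32851 promoters, and TTCNNGAA in 8 (11.8%) against 8.52%. The longer element, GAANNTTC followed by NNGAA, contains both; it stood in 6 windows (8.82%) against 0.603%. Those 6 hold only 3 separate stretches, since Hspd1 and Hspe1 share one and the windows of Dnajb6 and of Hsph1 overlap. Counted by gene, 4 of 52 member genes had it (7.69%), against 0.662% of all genes with a promoter. The stretch of Hspd1 and Hspe1 and that of Dnajb6 lie before the start site, and that of Hsph1 lies after it. CCAAT, which is also the first part of the ER stress element, stood in 27 (39.7%) against 37.4%. The ER stress element stood in 3 (4.41%) against 0.119%, those of Hspa5, Hsp90b1 and Dnajc3. GAANNTTC was not confined to members on the Myc side. In the comparison with the reference below, Hspa1a, Hspb1, Hspd1, Hspe1 and Dnajb6, which have it, passed on that side. Dnaja1, Dnaja4, Dnajc27, Hspb3, Hspb8 and Hsph1, which also have it, did not pass. Of the genes with TTCNNGAA, Hspd1, Hspe1 and Dnajb6 passed on the Myc side, Dnajb4 and Dnajc10 opposite it, and Hsph1 on neither. These matches describe letters and show no binding.

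The first comparison asked which chaperone transcripts differed from the reference in the carcinomas as a whole. Of the 60 probes tested, 19 (31.7%) passed on the Myc side, where 30.4% of all 12888 probes passed, and 7 (11.7%) on the opposite side, where 16.9% did (limma, adjusted p under 0.05 over all probes). Either side together, 26 passed (43.3%; all probes 47.2%), and 34 did not. The members' share was near the background on the Myc side and below it on the other, and their median mean ratio was 0.19 against 0.13 for all probes. With array medians subtracted, 15 lay on the Myc side (background 25.7%) and 8 on the opposite side (background 21.4%), with a median of 0.09 against 0.03. Hspa4l was the only member on 1 side in all 15 extracts, which 1546 of all 12888 probes (12%) were.

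**Figure D1:**
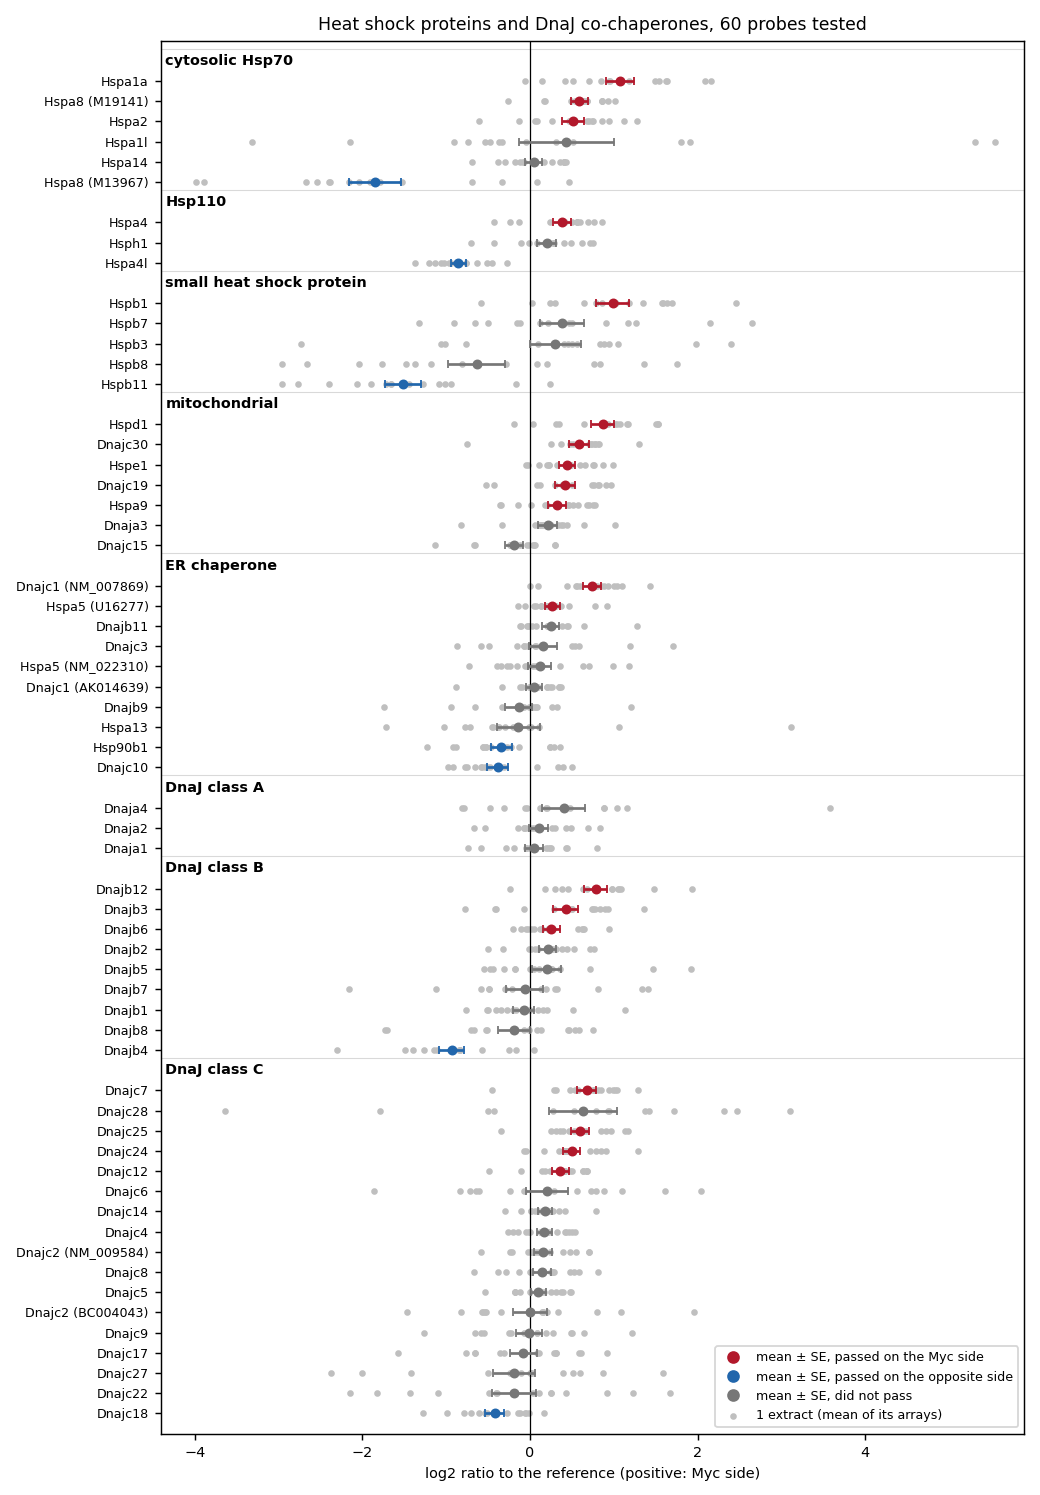
Log2 ratio to the reference for the 60 member probes tested, grouped by role; grey points are the 15 extracts, coloured points the mean with its SE (red, passed on the Myc side; blue, passed on the opposite side; grey, did not pass). Hspa1a at 1.08 lies farthest on the Myc side, and the Hspa8 probe M13967 at -1.85 farthest on the opposite side.

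Among cytosolic Hsp70 genes, 3 of 6 probes passed on the Myc side and 1 opposite it. Hspa1a, the classic stress-inducible Hsp70, ran from -0.06 in 546-B through a median of 0.95 to 2.16 in 561-B. It was positive in 14 of 15 extracts, at a mean of 1.08 ± 0.17 (SE, n = 15), a 2.11-fold difference (limma adjusted p = 4.88e-05). Extracts 561-B and 546-A (2.09) were highest, and 546-B and 579-F (0.14) lay near the reference. Hspa2, a relative best known from testis, had a mean of 0.52 ± 0.13. It ran from -0.61 in 550-A through a median of 0.68 to 1.28 in 546-A, measured there on 1 array. Hspa14, which works at the ribosome, stayed close to 0 (0.04 ± 0.10) and did not pass. The testis gene Hspa1l spread from -3.32 in 546-A to 5.56 in 567-B around a median of -0.34 and did not pass. On its probe, 54.2% of values were log2 ratios of whole numbers up to 20. Both extremes came from 1 array each, with the extract in channel 1 in 546-A and in channel 2 in 567-B. The mean of Hspa1l was -2.12 over channel 1 arrays and 2.19 over channel 2 arrays, so its spread over extracts includes that offset.

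Hspa8 encodes the constitutive Hsc70 protein, and its 2 probes lay on opposite sides. Probe M19141 ran from -0.26 in 579-D through 0.65 to 1.01 in 540-B, positive in 14 of 15 extracts, with a mean of 0.59 ± 0.10 (limma adjusted p = 0.000114). Probe M13967 ran from -3.98 in 579-A through -2.04 to 0.47 in 579-F, negative in 13 of 15 extracts, with a mean of -1.85 ± 0.31 (limma adjusted p = 9.06e-05). The SD over extracts was 0.34 for the first and 1.29 for the second. Both kept their side in either channel orientation. Over the 15 extracts, with array medians subtracted, the probes correlated at r = -0.22 (0.26 in channel 1 and -0.12 in channel 2), and no level is given for Hspa8 as a gene.

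**Figure D2:**
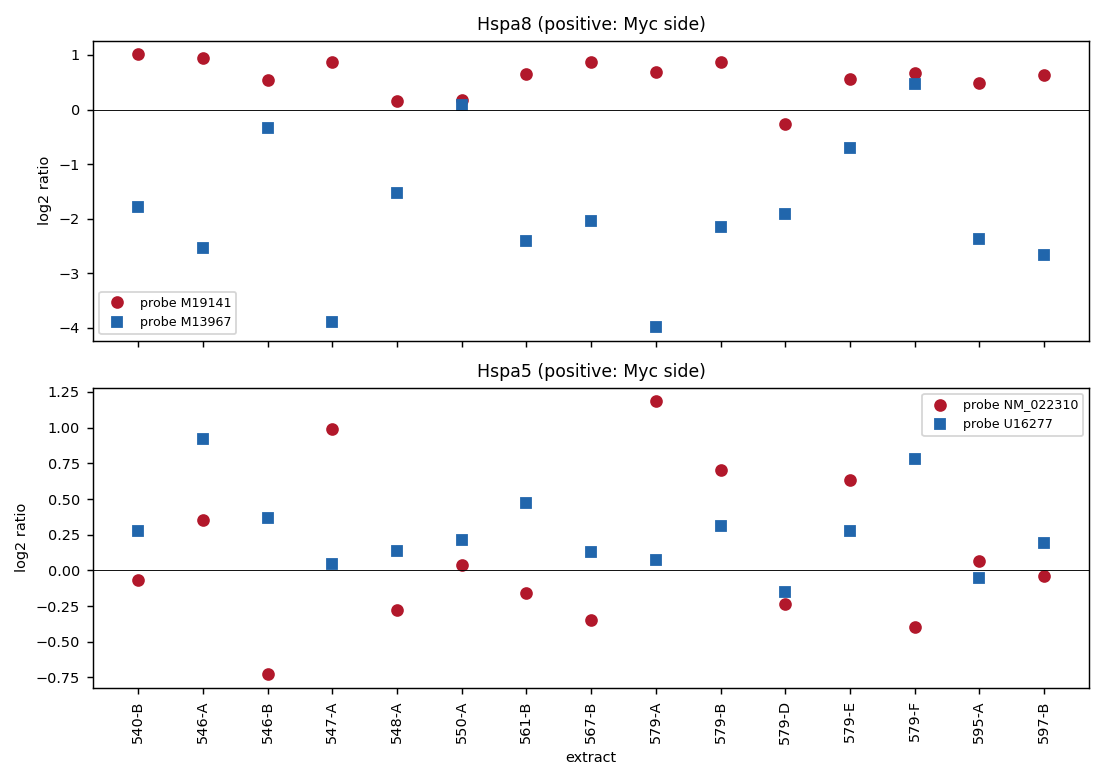
Log2 ratio to the reference (vertical axis, positive on the Myc side) by extract (horizontal axis) for both probes of Hspa8 and of Hspa5. The Hspa8 probe M19141 lies above M13967 in all 15 extracts, and the Hspa5 probe NM_022310 spreads more widely (SD 0.55) than U16277 (SD 0.29).

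The Hsp110 group, exchange factors for Hsp70, split 3 ways. Hspa4 passed on the Myc side, from -0.43 in 548-A through 0.51 to 0.85 in 547-A, with a mean of 0.38 ± 0.11 (limma adjusted p = 0.00671). Hsph1, the inducible member, had a mean of 0.20 ± 0.11, was positive in 11 of 15 extracts and did not pass. Hspa4l, most studied in testis, passed on the opposite side, from -1.37 in 548-A through -0.86 to -0.27 in 579-F, with a mean of -0.85 ± 0.09 (limma adjusted p = 9.35e-07). All 15 extract means were negative, yet the mean was -1.79 with the extract in channel 1 and 0.09 with it in channel 2, so this side rests on 1 orientation.

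Small heat shock proteins hold unfolding proteins in a soluble state. The 5 probes tested with such symbols had the widest spread over extracts of the roles, at a median SD of 1.10. The median SD was 0.47 for all members and 0.62 for all probes. For Hspb7 (SD 1.10) and Hspb3 (SD 1.28) the noise SD of single arrays was 1.49 and 1.37. Neither passed the F-test over extracts given below (limma adjusted p = 0.886 and 0.486). Hspb1 passed on the Myc side. It ran from -0.58 in 547-A through 1.02 to 2.45 in 546-A, positive in 14 of 15 extracts, with a mean of 0.99 ± 0.19, a 1.98-fold difference (limma adjusted p = 0.000416). Hspb11 has a name from this family but encodes a protein of intraflagellar transport. It ran from -2.96 in 579-D through -1.65 to 0.24 in 579-E, negative in 14 of 15 extracts, with a mean of -1.52 ± 0.21 (limma adjusted p = 1.54e-05). Hspb8, which serves in the clearance of aggregates, had a mean of -0.64 ± 0.34 and did not pass. The muscle members Hspb3 (0.30 ± 0.30) and Hspb7 (0.39 ± 0.26) did not pass either.

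Of 7 probes for mitochondrial chaperones, 5 passed on the Myc side, where 30.4% of all probes did. On the opposite side 0 passed in limma (0 at unadjusted p under 0.05). Of the 5, only Hspd1 passed in each orientation alone. Hspe1 did not pass with channel 2 arrays (limma adjusted p = 0.466). Hspa9, Dnajc19 and Dnajc30 did not pass with channel 1 arrays (limma adjusted p from 0.0573 to 0.0598). Hspd1, the barrel of the mitochondrial chaperonin, ran from -0.19 in 546-A through 1.01 to 1.53 in 547-A, with a mean of 0.87 ± 0.14, a 1.82-fold difference (limma adjusted p = 6.33e-05). Hspe1, its lid, ran from -0.05 in 579-E through 0.47 to 0.99 in 579-A, with a mean of 0.44 ± 0.10 (limma adjusted p = 0.00121). Both were low in 579-D and 579-E and high in 547-A and 579-A. Hspa9, the Hsp70 of the matrix and motor of protein import, had a mean of 0.32 ± 0.11, and Dnajc19, a J protein of that motor, 0.42 ± 0.12. Dnajc30, another mitochondrial J protein, reached 0.58 ± 0.12 with 14 of 15 extracts positive. Dnaja3 (0.21 ± 0.11) and Dnajc15 (-0.19 ± 0.11), a relative of Dnajc19, did not pass. With array medians subtracted, Dnajc15 passed on the opposite side, at -0.28, and Hspa9 no longer passed (limma adjusted p = 0.0604).

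ER chaperones showed no common side: 2 of 10 probes passed on the Myc side, 2 opposite it and 6 on neither. Hsp90b1, the Hsp90 of this compartment, ran from -1.22 in 579-D through -0.46 to 0.36 in 547-A, with a mean of -0.34 ± 0.13 (limma adjusted p = 0.034). Its call was lost when any of 8 extracts was left out, among them 579-D and 546-B. Dnajc10, a J protein that reduces disulfides, had a mean of -0.39 ± 0.13 and was negative in 11 of 15 extracts. BiP had a pair of probes that disagreed. Hspa5 probe U16277 passed on the Myc side at 0.27 ± 0.09 with 13 of 15 extracts positive, but not with medians subtracted (limma adjusted p = 0.131). Hspa5 probe NM_022310 ran from -0.72 in 546-B to 1.18 in 579-A around a median of -0.04, and its mean of 0.12 ± 0.14 did not pass. Their values, with array medians subtracted, correlated at r = 0.06 over 15 extract means, at 0.51 over channel 1 arrays and at 0.35 over channel 2 arrays.

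The probes for Dnajc1, an ER membrane J protein, disagreed as well. Probe NM_007869 passed on the Myc side at 0.74 ± 0.11, with 14 of 15 extracts positive, while probe AK014639 stood at 0.05 ± 0.10 and did not pass. Their r was 0.10 over extract means, 0.42 in channel 1 and 0.27 in channel 2. Dnajb11, a cofactor of BiP, had a mean of 0.25 ± 0.10, positive in 10 of 15 extracts, which did not pass (limma adjusted p = 0.0626). Dnajb9 (-0.13 ± 0.16), an inducible J protein of ER quality control, Dnajc3 (0.16 ± 0.17), an inhibitor of the ER stress kinase Eif2ak3, and Hspa13 (-0.14 ± 0.26), an Hsp70 relative of this compartment, did not pass.

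DnaJ proteins of classes A and B have the J domain at their start with a glycine-rich stretch, and class C holds all other J proteins. Of 3 class A probes 0 passed in limma (0 at unadjusted p under 0.05): Dnaja1, a main cytosolic partner of Hsc70, stood at 0.05 ± 0.11, Dnaja2 at 0.11 ± 0.11 and Dnaja4 at 0.40 ± 0.26. In class B, 3 of 9 passed on the Myc side and 1 opposite it. Dnajb12, a J protein of the ER membrane that faces the cytosol, ran from -0.24 in 546-A through 0.79 to 1.93 in 561-B. Its mean was 0.78 ± 0.14 (limma adjusted p = 0.000185), and its value in 546-A came from 1 array. Dnajb4, a cytosolic relative of Dnajb1, ran from -2.30 in 548-A through -0.92 to 0.05 in 579-F, negative in 14 of 15 extracts, with a mean of -0.93 ± 0.15 (limma adjusted p = 5.98e-05). Dnajb3 (0.42 ± 0.15) and Dnajb6 (0.26 ± 0.10), the latter known for keeping aggregation-prone proteins soluble, passed on the Myc side, but not with array medians subtracted. Dnajb1, the main inducible J protein of the cytosol, had a mean of -0.07 ± 0.13 with 6 of 15 extracts positive and did not pass.

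Of 17 class C probes, 4 passed on the Myc side and 1 opposite it. Dnajc7, a cochaperone that links Hsp70 and Hsp90, ran from -0.46 in 548-A through 0.76 to 1.29 in 579-D, with a mean of 0.68 ± 0.12, positive in 14 of 15 extracts (limma adjusted p = 0.000118). Dnajc25 (0.59 ± 0.11), Dnajc24 (0.50 ± 0.10), a factor in the making of diphthamide, and Dnajc12 (0.36 ± 0.10) were the others. The side of Dnajc12 differed by orientation. With the extract in channel 1 alone, Dnajc12 passed on the opposite side at -0.34 (limma adjusted p = 0.0381). In channel 2 alone it passed on the Myc side at 1.07. Dnajc18 stood on the opposite side at -0.42 ± 0.11, negative in 14 of 15 extracts. The remaining 12 had means from -0.19 (Dnajc22) to 0.63 (Dnajc28). Dnajc2, a J protein of the ribosome, had 3 probes that disagreed: 0.15 ± 0.10 and 0.00 ± 0.21 for the 2 tested, and 0.57 for the other, measured in 13 extracts. The correlations between them lay between -0.19 and -0.01 over extract means and between -0.43 and 0.44 within single channels.

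The 7 probes not tested lacked a value in 546-A, 548-A or both. Their means over the extracts measured were 0.92 for Hspa12a, a distant Hsp70 relative (12 of 14 extracts positive), 0.57 for that Dnajc2 probe, 0.43 for Dnajc16, 0.11 for Dnajc5b, 0.08 for Dnajb14, -0.24 for Dnajc21 and -0.25 for Dnajb13.

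The channel of the extract changed many members. With channel 1 arrays alone, 12 probes passed on the Myc side and 20 opposite it; with channel 2 arrays alone, 29 and 3. For all probes the counts were 3074 and 4361, then 5866 and 1843, so the same turn was seen in the whole table. Means lay on different sides in the 2 orientations for 26 of 60 members (43.3%; all probes 45.6%), and 10 passed on different sides (16.7%; all probes 16.2%). Dnaja4, for example, stood at -1.10 in channel 1 and 1.91 in channel 2. Averaging paired arrays removes such an offset only where both arrays have a value.

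Only 8 members (13.3%) passed on the same side in each orientation alone, against 22.5% of all probes. On the Myc side these were Hspa1a, Hspb1, Hspd1, Dnajb12, Dnajc7 and Hspa8 probe M19141; on the opposite side, Hspb11 and Hspa8 probe M13967. Hspb1 was nearly equal in both, at 1.03 and 0.94, as were Hspb11, at -1.54 and -1.49, and Hspd1, at 0.93 and 0.81. Hspa1a was 0.57 with the extract in channel 1 and 1.59 in channel 2, so its side held while its size did not. Hspe1, in contrast, passed with channel 1 alone at 0.78 and stood at 0.11 with channel 2.

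**Figure D3:**
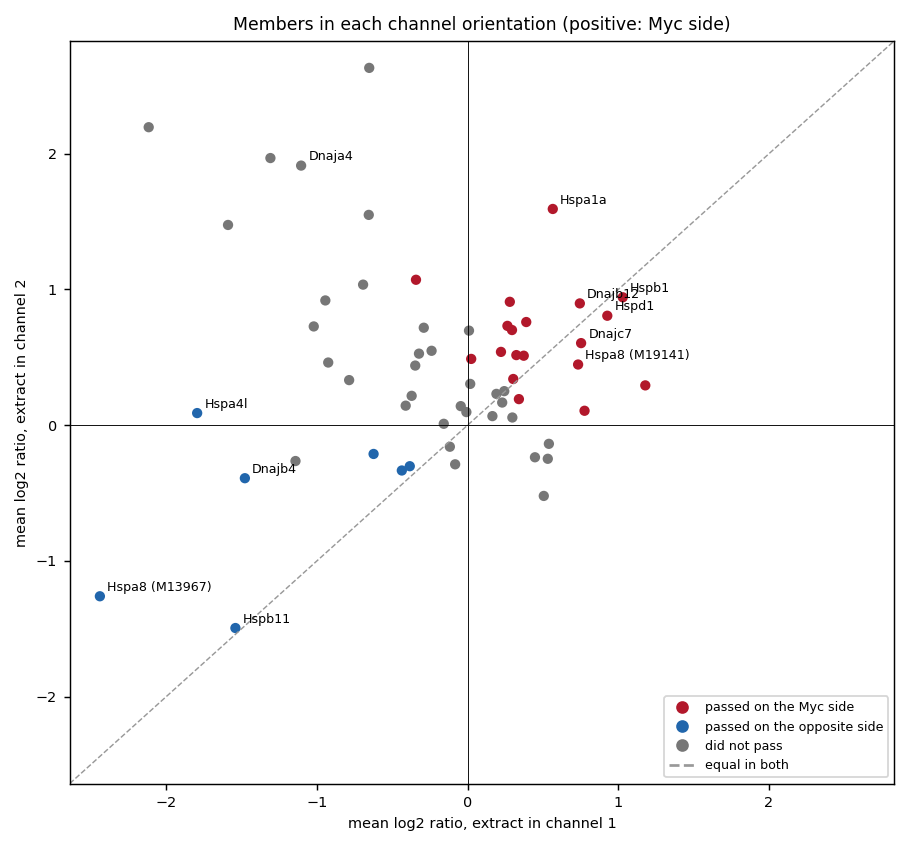
Mean log2 ratio of each of the 60 members over arrays with the extract in channel 1 (horizontal axis) and in channel 2 (vertical axis), coloured by the call on extract means; the dashed line marks equal means. Hspb11 (-1.54 and -1.49), Hspd1 (0.93 and 0.81) and Hspb1 (1.03 and 0.94) lie near the line, while Dnaja4 (-1.10 and 1.91) lies far above it.

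The second comparison asked which chaperones differed among the carcinomas by more than the paired arrays of an extract did. Of the 60 members, 7 (11.7%) passed the F-test over extracts, against 6.73% of all probes: Hspa8 probe M13967, Hspa13, Hspb1, Hspb8, Hspa5 probe NM_022310, Dnajc19 and Hspb11. With array medians subtracted, 3 passed (background 5.63%), namely Hspa8 probe M13967, Hspa13 and Hspb8. The median SD of members over extracts, 0.47, was below the 0.62 of all probes.

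**Figure D4:**
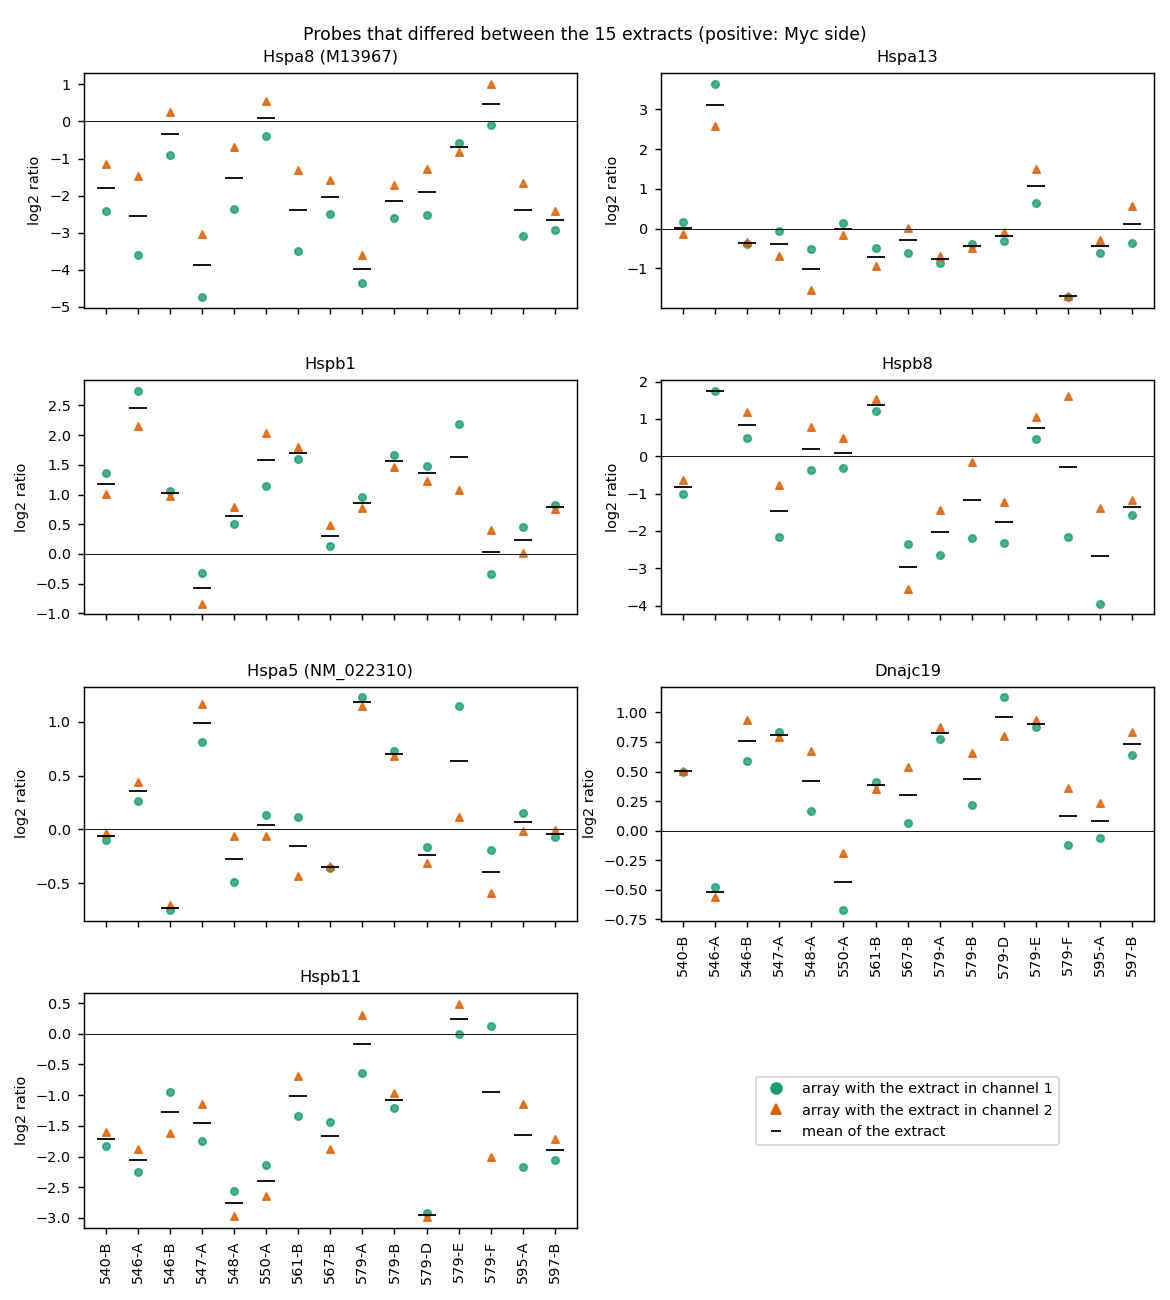
Log2 ratio to the reference (vertical axes, positive on the Myc side) on each array for the 7 probes that differed between the 15 extracts (horizontal axes); circles and triangles are arrays with the extract in channel 1 and 2, and bars are extract means. Hspa13 stands at 3.11 in 546-A and at most 1.07 in the other extracts, and Hspb8 ranges from -2.95 in 567-B to 1.76 in 546-A.

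Probes with small heat shock symbols supplied 3 of the 7. Hspb8 was high in 546-A (1.76, measured there on 1 array) and 561-B (1.36), and low in 567-B (-2.95), 595-A (-2.67) and 579-A (-2.04), an SD of 1.45 (limma F-test adjusted p = 0.00996). Hspb1 was high in 546-A (2.45), 561-B (1.70) and 579-E (1.63), and low in 547-A (-0.58), 579-F (0.03) and 595-A (0.23), an SD of 0.78 (adjusted p = 0.00559). Both had their highest extract in 546-A. Skeletal muscle is rich in small heat shock proteins, and 5 of 8 markers of it had their highest value in 546-A as well. The mean of the 8, with array medians subtracted, was 1.68 in 546-A and 1.62 in 546-B, against -1.10 to 0.55 in the other 13 extracts. The markers did not move as one: Tnni2, measured on 1 array in each of these extracts, was lowest of all in 546-A (-7.42) and highest in 546-B (4.09). Without it the mean of the other 7 was 2.95 in 546-A and 1.35 in 546-B, against -1.22 to 0.53 elsewhere. Hspb7 was highest in the same 2 extracts, at 2.65 in 546-A and 2.15 in 546-B, the latter from 1 array with the extract in channel 2, with 1.27 as the next value. It did not pass the F-test (adjusted p = 0.886, array noise SD 1.49). The mesenchymal list mean was highest in 546-A as well, at 0.22, and lay between -2.73 and 0.21 in the other 14 extracts. A peak in this thin extract was not particular to skeletal muscle. The epithelial (3.15), smooth muscle and myoepithelial (0.90), macrophage (1.27) and lymphocyte (0.08) list means were also highest there. The endothelial and adipocyte means were not. Some members of other families, among them Dnaja1, Dnajb11 and Hspa13, also had their highest value in 546-A. The part of these cell types in the values was not tested.

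Hspb11 was lowest in 579-D (-2.96), 548-A (-2.76) and 550-A (-2.39) and highest in 579-E (0.24) and 579-A (-0.17). Its adjusted p of 0.0333 in limma's F-test crossed the threshold when any of 6 extracts was left out, with a highest value of 0.113. In 579-F its arrays stood apart, above 0 in channel 1 and near -2 in channel 2.

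Hspa13 turned on 1 extract. It stood at 3.11 in 546-A and next at 1.07 in 579-E, with the other 13 extracts between -1.71 (579-F) and 0.11 (597-B). The F-test gave an adjusted p of 0.000687 in limma with 546-A and 0.0695 without it. Both arrays of 546-A were high. The other ER probe that passed, Hspa5 NM_022310 (adjusted p = 0.0182), was high in 579-A (1.18), 547-A (0.99), 579-B (0.70) and 579-E (0.63) and low in 546-B (-0.72). Without 579-A or without 546-B it did not pass. Dnajc19 was low in 546-A (-0.52) and 550-A (-0.43) and lay between 0.09 and 0.96 in the other 13 extracts (adjusted p = 0.026), and leaving out either low extract ended its call.

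Hspa8 probe M13967 had the smallest adjusted p of the 7, 0.000106. It lay at -3.98 in 579-A and -3.88 in 547-A, and at -0.34 in 546-B, 0.08 in 550-A and 0.47 in 579-F. It passed whichever extract was left out. Hspa1a did not pass (F = 2.17, limma F-test adjusted p = 0.264). Its noise SD was 0.66 for a single array, and its SD over extracts, each a mean of 2 arrays, was 0.67.

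The third set of comparisons asked whether partner chaperones moved together over the 15 extracts. There were 18 relations, chosen for a shared promoter, compartment or partner, on values with array medians subtracted, with permutation p-values adjusted over the 18. Hspd1 and Hspe1, which share the promoter shown above and form 1 complex, correlated at r = 0.78 (permutation p = 0.00061, adjusted 0.00549) and rho = 0.75 (permutation p = 0.00174, adjusted 0.0157). Without the 2 extracts farthest on Hspd1, 546-A and 579-B, r was 0.81. It was 0.77 over channel 1 arrays and 0.52 over channel 2 arrays.

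In the ER, Hspa5 probe NM_022310 correlated with Hsp90b1 at r = 0.83 (permutation p = 0.00027, adjusted 0.00486) and rho = 0.72 (permutation p = 0.00348, adjusted 0.0209). Without 547-A and 579-A, the 2 farthest extracts, r was 0.73, and within channels it was 0.87 in both. With Dnajb11 it correlated at r = 0.67 (permutation p = 0.00554, adjusted 0.0332) and rho = 0.88 (permutation p = 4e-05, adjusted 0.00072), and at r = 0.72 without the same 2 extracts. Hspa5 NM_022310 and Hsp90b1 shared their 3 highest extracts, 547-A, 579-A and 579-B, while Dnajb11 was highest in 546-A (1.14). Hspa5 probe U16277 gave r = 0.37 with Hsp90b1 (adjusted permutation p = 0.314) and 0.48 with Dnajb11 (adjusted permutation p = 0.177). Within single channels U16277 reached r = 0.66 and 0.55 with Hsp90b1, so the probes of Hspa5 differed less there. Dnajc3, whose promoter also holds the ER stress element, gave r = 0.03 with NM_022310 (adjusted permutation p = 0.956) and 0.60 and -0.25 within channels 1 and 2.

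**Figure D5:**
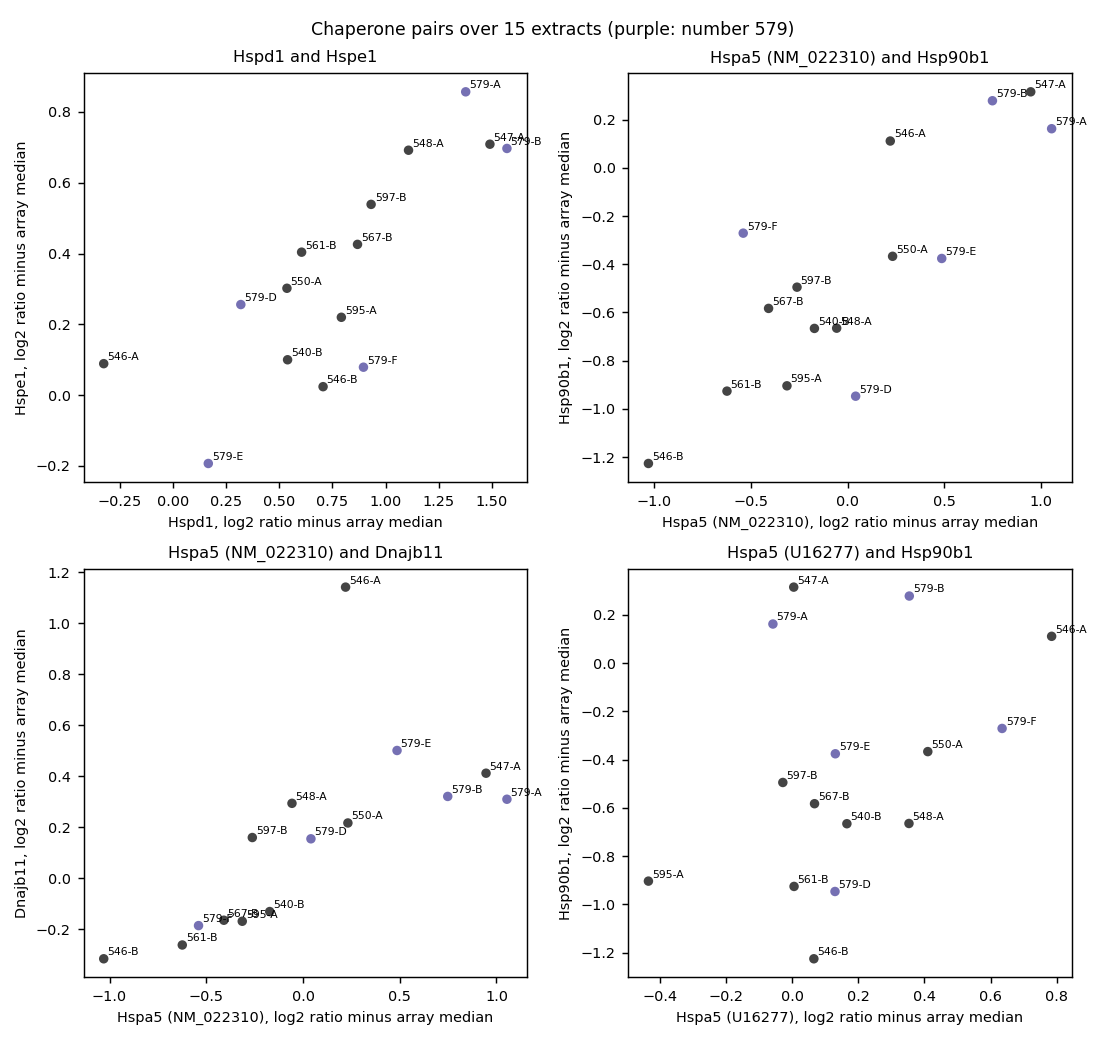
Log2 ratio minus the array median for 4 pairs of probes, 1 point per extract (purple, number 579). Hspd1 and Hspe1 (r = 0.78), Hspa5 NM_022310 and Hsp90b1 (r = 0.83) and Hspa5 NM_022310 and Dnajb11 (r = 0.67) move together, while Hspa5 U16277 and Hsp90b1 (r = 0.37) did not pass.

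Among cytosolic pairs, 0 passed by r (smallest unadjusted permutation p = 0.017). Hspa1a with its inducible partner Dnajb1 gave r = 0.58, Hspb1 with Hspb8 0.60, and Hspa8 probe M19141 with Dnaja1 0.59, each at an adjusted permutation p of 0.0626. The last pair passed by rank (rho = 0.65, adjusted permutation p = 0.0458), but the other Hspa8 probe, M13967, gave r = -0.25 and rho = -0.24 with Dnaja1 (adjusted permutation p = 0.484 and 0.462). Hspa1a with Hsph1 (r = 0.45) and with Hspb1 (r = 0.27) did not pass, nor did Hspa1a with the immediate early genes Fos (r = -0.31) and Egr1 (r = 0.11), which are induced within minutes by many stimuli. In mitochondria, Hspa9 with Hspd1 gave r = 0.32 and, without the thin extracts 546-A and 548-A, 0.67, and did not pass (adjusted permutation p = 0.397).

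The probes most like Hspa1a over the 15 extracts, out of 5974 named probes with values on all arrays, were Cib1 (r = 0.895), Cdk2ap1 (0.853), Rcor2 (0.845), Gapdh (0.840) and 1700010G06Rik (0.818). For Hspa5 NM_022310 they were Tdg (0.896), Hax1 (0.870), Pdia3 (0.855), Efl1 (0.852) and Smarca5 (0.835). These are the highest of many and are descriptions only. Pdia3, a disulfide isomerase of the ER, is the one of these 10 that was among the pathway genes listed here.

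Number 579 and the descriptions gave no member call. Between the 5 extracts of 579 and the 10 others, 0 members passed in limma (2 at unadjusted p under 0.05; of all probes, 0.0% passed adjusted and 3.57% unadjusted). The smallest p-values belonged to Dnajc22 (mean -0.95 in 579 against 0.18), Hspb7 (-0.34 against 0.75) and Hspb11 (-0.98 against -1.79), with limma adjusted p of 0.9999 each. Between the 2 extracts of tumour progression and the 12 of the epithelial to mesenchymal set, 0 members passed in limma (3 unadjusted; of all probes, 0.00776% adjusted and 4.07% unadjusted). Dnaja4 came first, at a mean of 2.31 against 0.02 (limma adjusted p = 0.945). It stood at 3.58 in 550-A and 1.04 in 561-B, the highest of the 12 was 0.88 (540-B and 579-E), and 595-A, which has both descriptions, stood at 1.16. Its array noise SD was 1.47. Dnajb5 (0.86 against -0.05) and Dnajc28 (2.71 against 0.30) followed, both with an adjusted p of 1.

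Other genes of the chaperone network were counted for comparison, against shares over all probes of 30.4% on the Myc side and 16.9% opposite it. Of 20 cochaperones of Hsp90 and Hsp70 tested, 11 passed on the Myc side and 2 opposite it; Fkbp4 at 0.87 ± 0.10 and Fkbp8 at 0.86 ± 0.10 lay farthest on the first, and Cdc37l1 at -0.54 ± 0.17 and Stip1, the adaptor between Hsp70 and Hsp90, at -0.29 ± 0.09 on the second. Of 8 exchange factors 3 passed on the Myc side, led by Bag1 at 1.06 ± 0.09, positive in 15 of 15 extracts. The cytosolic chaperonin TRiC and its feeder prefoldin had 14 genes tested, 7 on the Myc side and 2 opposite it, with Cct5 (0.60 ± 0.09) and Cct8 (-0.33 ± 0.12) on different sides within 1 complex. Mitochondrial quality control genes gave 8 and 1 of 10, with the Hsp90 relative Trap1 at 1.30 ± 0.12 and the protease Htra2 at 1.44 ± 0.13, and Lonp1 at -0.30 ± 0.10.

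ER folding and unfolded protein response genes, 21 tested, split 5 on the Myc side and 6 opposite it. With array medians subtracted these became 5 and 10, against 25.7% and 21.4% of all probes, while the counts of the other lists moved by at most 2. Xbp1, a transcription factor of secretory cells and of this response, stood at 1.70 ± 0.16, positive in 15 of 15 extracts, and the lectin chaperone Calr at 0.79 ± 0.13. Ddit3, the death-linked factor of the same response, stood at -2.17 ± 0.17, and the oxidase Ero1a at -1.81 ± 0.13, both negative in 15 of 15. A list of heat shock factors and genes set beside them had 2 genes tested. The heat shock factor Hsf4 (-0.21 ± 0.17) did not pass, and Trim11 (1.32 ± 0.30) passed on the Myc side. Of 3 alpha-crystallin relatives 0 passed in limma (0 at unadjusted p under 0.05). Immediate early genes gave 0 on the Myc side in limma (0 at unadjusted p under 0.05) and 6 on the opposite side of 13, with Dusp1 at -2.13 ± 0.23 and Fos at -1.84 ± 0.31.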

How the data were processed

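Deposited values are log2 ratios of the channels of 30 arrays; background correction, normalization, scanner and numerator were not given in the sources used here. That scale was read from the deposited values. The value 16.61 (8839 cells) was taken as a placeholder and treated, like 95268 blank cells, as missing. Symbols came from the array annotation. Arrays with the extract in channel 2 were turned and both arrays of an extract averaged. Probes with values on at least 24 arrays and in every extract (12888) were tested: extract means against 0, number 579 against others and the descriptions with limma 3.58.1 (lmFit, eBayes; R 4.3.3), and extracts with limma's F-test on single arrays with a dye term. Benjamini-Hochberg adjustment ran over all 12888 probes at 0.05. These tests leave out any variation of the reference, a single RNA. Correlations used permutation with 100000 resamples. Tests were checked on simulated data that held no channel offset and no shift of array level, so the check says nothing about either. Alternatives were array medians subtracted, quantile normalization, single orientations, fewer probes or extracts, 1 mean per number, and a random block by number. Members and lists were chosen with earlier results of these data known. Genes named were the 8 farthest passing probes per side among those on 1 side in every extract, the 10 of largest SD among those that passed the F-test, listed main chaperones, the 3 of smallest p in a comparison without calls, and genes with disagreeing probes; others named, the ER stress element search, motif counts by gene, the muscle mean without Tnni2, the leave-one-extract-out fits and an F-test on each probe's own arrays were chosen after values were seen. The precision is limited by the number of arrays.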

Additional observations from a re-analysis of the deposited data

Results flagged for a closer look

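Among the 5 extracts of number 579, Hspa8 probe M19141 stood at -0.264 in 579-D while the other 4 lay between 0.566 and 0.863. The gap to the nearest of them was 0.736 of the whole range, beyond Dixon's critical value for 5 samples. It was the only 1 of 29 probes examined in this way to exceed it, and chance alone passes about 1 in 20. Both arrays of 579-D were below 0 for this probe, at -0.374 and -0.153. The same extract had the lowest Dnaja1 (-0.74), Dnajb1 (-0.77) and Hsph1 (-0.70) of all 15 extracts. The median of 1 of its arrays was the lowest of all 30, at -0.94. With array medians subtracted, the Hspa8 probe stood at 0.01 in 579-D, nearer to the other 4, which ran from 0.42 (579-E) to 0.91 (579-B). On that scale Dnaja1 and Dnajb1 were lowest in 546-B (-0.59 and -0.82), and Hsph1 was still lowest in 579-D (-0.43). The part of the array level was not tested further.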

How the results depend on the processing

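Orientation moved the counts most. With the extract in channel 1 only, 12 members passed on the Myc side and 20 opposite it; in channel 2 only, 29 and 3. Of the 60 members, 15 changed side in channel 1 only, 11 in channel 2 only, 4 with medians subtracted, 3 without 546-A and 548-A, 2 with 1 mean per number and 1 with number as a random block. Among members described in the report, those were, in channel 1 only, Dnaja1 (-0.046), Dnaja4 (-1.105), Dnajc1 AK014639 (-0.348), Dnajc12 (-0.343), Dnajc2 BC004043 (-1.590), Dnajc2 NM_009584 (-0.239), Dnajc28 (-0.653), Hspa14 (-0.0084), Hspa1l (-2.116) and Hspb3 (-0.656); in channel 2 only, Dnaja2 (-0.237), Dnajb1 (0.0099), Dnajb5 (-0.138), Dnajb9 (0.143), Dnajc22 (0.461) and Hspa4l (0.089); with medians subtracted, Dnaja1 (-0.047), Dnajc1 AK014639 (-0.049), Dnajc2 BC004043 (-0.105) and Hspa14 (-0.050); and Dnajc2 BC004043 with 1 mean per number (-0.139) and with the random block (-0.00018). Against 7 members that differed between extracts, 3 passed with medians subtracted, 3 with no dye term, 3 after quantile normalization and 4 without 546-A and 548-A; leaving out 1 extract gave 4 to 8, the 4 without 546-A. The cause was not tested. Counts for number 579 and for the descriptions were 0 in limma under every alternative run (2 and 3 at unadjusted p under 0.05 as reported). Against the reference, leaving out 1 extract gave 17 to 20 members on the Myc side and 6 to 7 opposite it; Dnajb3 lost its call without any of 6 extracts, Dnajb6 of 9 and Hsp90b1 of 8. The share on the Myc side among members that passed was 73.1%, and 65.2% with medians subtracted. Extracts could not be paired across the groups compared, because no groups share replicate numbers. The 2 arrays of an extract were averaged or, in the F-test, fitted with a dye term. Values missing in the thin extracts 546-A and 548-A, and probes near background, limit what was measured.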
